A study of Danio rerio with 8 samples.

Results

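Genes of ribosome assembly and the nucleolus were followed in larval zebrafish eosinophils that lacked Cebp1 or Cebpb, which are transcription factors of the C/EBP family. A set of 47 genes was drawn up by name, and those with a mean of at least 1 TPM over the 4 libraries of a table were counted as present: 43 for *cebp1* and 42 for *cebpb*, out of 30838 genes listed in each. All 47 names matched the RefSeq gene table by symbol. TPM are read numbers corrected for gene length and brought to one total per library, so that levels of different genes can be set side by side. They keep no record of depth, and how many reads stand behind a value cannot be said.

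The cells were sorted by eGFP fluorescence from digested whole larvae at 7 dpf, about 500 cells for each library, and all larvae were of the AB strain and carried *Tg(eslec:eGFP)*, in which a promoter of *eslec*, an eosinophil lectin gene, drives eGFP. There were 8 libraries: 2 of *cebp1+/+* and 2 of *cebp1-/-* cells in the first table, and 2 of *cebpb+/+* and 2 of *cebpb-/-* cells in the second, each library from a different pool of larvae. The comparison asks how each mutation, present in every cell of the larva, changed the RNA of the sorted cells. The mutated gene *cebp1* was listed at 0 in all 8 libraries, so it could not check the labels, whereas *cebpb* RNA stood at 6360 and 5716 TPM in *cebpb+/+* cells versus 2928 and 1480 TPM in *cebpb-/-* libraries. In *cebp1-/-* libraries *cebpb* was at 743 and 715 TPM, against 530.5 and 495 TPM in *cebp1+/+*.

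A ribosome is built in the nucleolus, where RNA polymerase I transcribes the ribosomal RNA (rRNA) precursor. Small nucleolar ribonucleoproteins (snoRNPs) then modify the precursor, the small subunit processome folds and cuts it, and assembly factors carry the small and the large subunit through maturation and export to the cytoplasm. The genes for these factors are commonly active together in growing cells and are known targets of Myc in mammals.

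Sorting purity bears on all values below. Of 11 eosinophil markers, 10 were tested in each table, and the myeloid gene *coro1a* stayed at or under 0.716 TPM in every library. Their summed share of TPM was 1.55 and 1.81% in *cebp1+/+*, 2.83 and 3.07% in *cebp1-/-*, 5.11 and 4.60% in *cebpb+/+* and lastly 2.12 and 2.84% in *cebpb-/-*. By the test described below, 7 of the 10 were called higher in *cebp1-/-* and 0 of the 10 in *cebpb-/-*, where no gene at all was called. In *cebpb-/-* 7 of the 10 were lower and 1 higher at an unadjusted p under 0.05 by limma, against 8.05% and 6.13% of all genes. Most of the sum was *eslec*, at 36140 and 31900 TPM in *cebpb+/+*. *il1rl1* rose from 45.3 and 60.7 TPM in *cebpb+/+* to 377 and 384 TPM in *cebpb-/-*. The 7 pigment cell markers held 0.484 and 0.591% of TPM in *cebp1+/+*, 0.200 and 0.310% in *cebp1-/-*, 0.483 and 0.567% in *cebpb+/+* and lastly 2.76 and 1.77% in *cebpb-/-*. The 10 keratinocyte markers summed to 850.1 and 2219 TPM in *cebp1+/+*, 205 and 331 TPM in *cebp1-/-*, 519 and 732 TPM in *cebpb+/+* and lastly 2055 and 3551 TPM in *cebpb-/-*, with *epcam* at 0 in all libraries. The 10 macrophage markers summed to 81.0 and 68.6 TPM in *cebp1+/+*, 28.6 and 30.1 TPM in *cebp1-/-*, 194 and 143 TPM in *cebpb+/+* and lastly 257 and 7.31 TPM in *cebpb-/-*. Of these, *mpeg1.1*, *c1qa*, *c1qb* and *c1qc* were listed at 0 in all 8 libraries, which with the annotation unknown need not mean that the RNA was absent. The 8 neutrophil markers summed to 126 and 111 TPM, 28.2 and 44.8 TPM, 68.3 and 130 TPM and 96.5 and 61.5 TPM in the same order, with *lyz* listed at 0 in all 4 libraries of the *cebpb* table. The 8 neural markers summed to 794 and 832 TPM, 304.5 and 204 TPM, 6.84 and 9.24 TPM and 58.8 and 236 TPM in that order. Single libraries stood out for 2 other lists. The 10 muscle markers summed to 969 TPM in the first *cebp1-/-* library and to 31.7 TPM in the second. Erythrocyte markers summed to 1144 TPM in the second *cebpb+/+* library and to 123 TPM in the first. Liver, pancreas and gut markers summed to 227 TPM in the first *cebpb-/-* library and to 0.295 TPM in the second. The genes followed here are active in many cell types. The part of these other cells in the results below was not tested, and in such bulk libraries fewer cells of a type and less RNA per cell cannot be told apart.

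The set was led by a single gene in every library. *rsl24d1* encodes the relative of yeast Rlp24, a large subunit assembly factor that holds the place of ribosomal protein eL24 until the subunit is exported. It was at 755 and 667 TPM in *cebp1+/+* cells versus 911 and 742 TPM in *cebp1-/-*. In the other table it was at 777 and 666 TPM in *cebpb+/+* cells versus 524 and 451 TPM in *cebpb-/-*. It thus held between 21.7 and 39.4% of the TPM sum of the set. The genotypes overlapped in the *cebp1* table as deposited, and both *cebpb-/-* libraries lay under both *cebpb+/+* libraries.

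*nop56*, *ncl*, *ddx21*, *nop58* and *nop10* followed. The mean levels of the genes present spanned 2.25 to 769 TPM in the *cebp1* table (median 27.9) and 1.48 to 604 TPM in the *cebpb* table (median 23.2). Genes at the low end included *pes*, a member of the PeBoW complex of large subunit assembly, at a mean of 2.34 and 1.48 TPM, and *polr1b*, the second largest subunit of RNA polymerase I, at 2.25 TPM in the *cebp1* table. In the *cebpb* table *polr1b* was listed at 0 in 3 libraries and at 0.0211 TPM in the other. *gar1*, a core protein of box H/ACA snoRNPs, and *rsl1d1* were listed at 0 in all 8 libraries, and *noc2l* and *nol6* had means of at most 0.0920 TPM, although their partners were present. No reads can be traced behind these zeros. Among the genes present in the *cebpb* table, 6 were listed at 0 in at least 1 library. A further count gave 4 genes (*pes*, *noc4l*, *utp3* and *emg1*) with a mean under 1 TPM in one genotype, which were present through the other genotype alone.

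**Figure D1:**
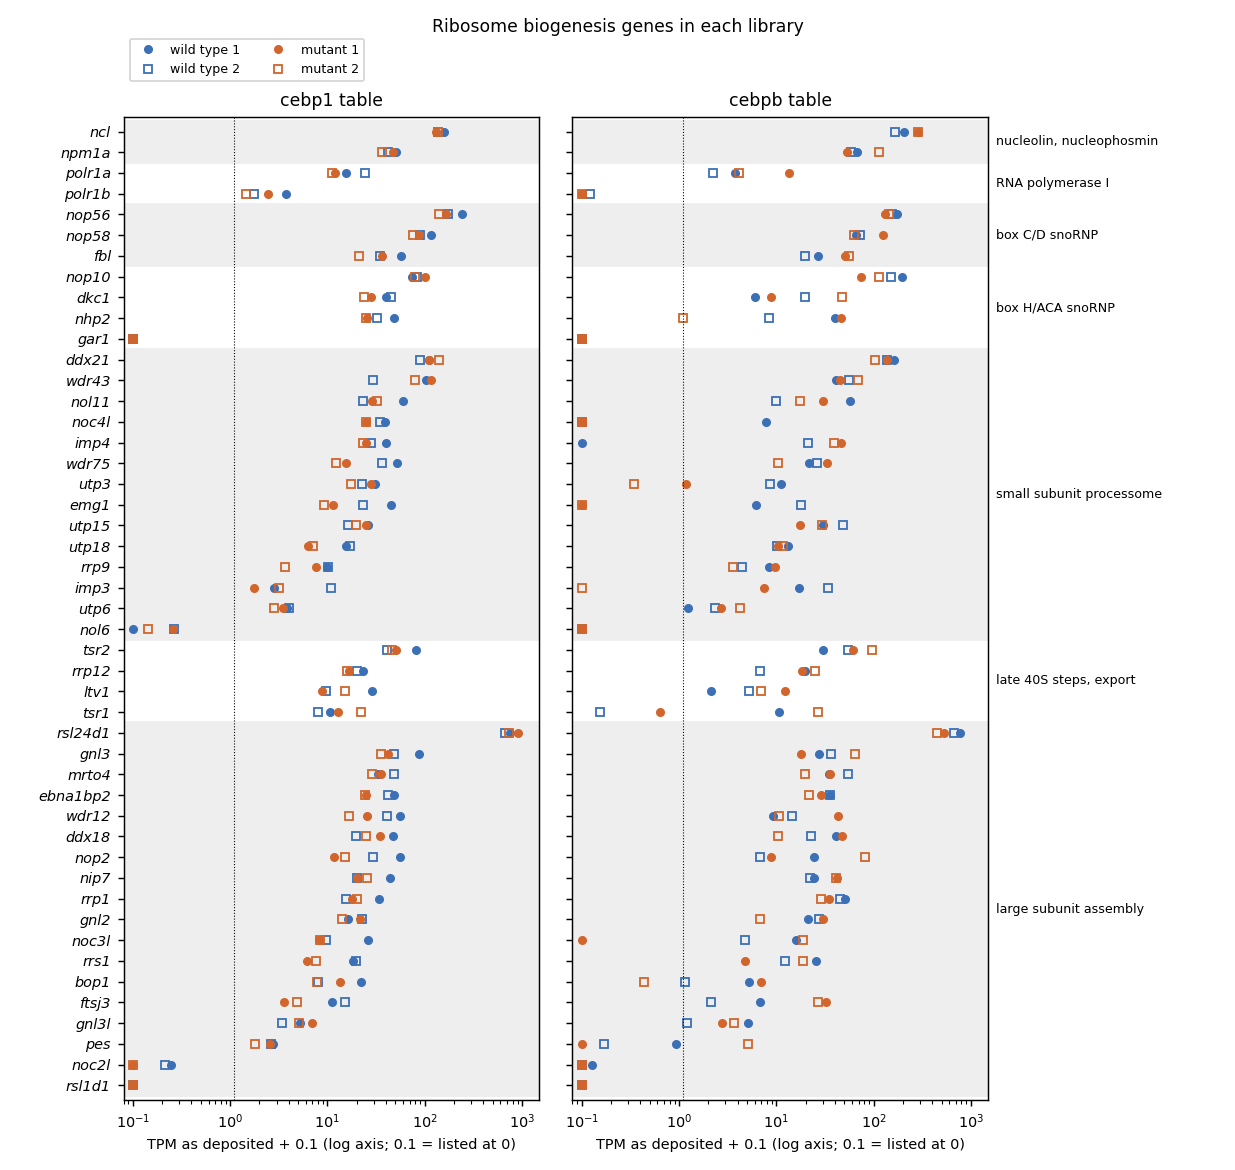
TPM as deposited (plus 0.1, log axis) of the 47 genes in each library, grouped by role; blue stands for wild type and orange for mutant, filled circles for replicate 1 and open squares for replicate 2, and the dotted line marks a TPM of 1. *rsl24d1* stands at 451 to 911 TPM in every library and no other gene of the set exceeds 286.5 TPM, and the points of one genotype lie further apart in the *cebpb* table.

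As a whole the set held overlapping shares of the RNA in mutant and wild type. It held 0.275 and 0.209% of TPM in *cebp1+/+* cells versus 0.231 and 0.201% in *cebp1-/-*. For the *cebpb* mutation it held 0.233 and 0.204% in wild type versus 0.208 and 0.208% in the mutant. The mutant share was 0.892 of the wild-type share for *cebp1* and 0.951 for *cebpb*, and the genotypes overlapped in both tables. With 2 libraries a genotype, an exact permutation test cannot go below p = 0.333, so such sums are described without a test.

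The RNA of the ribosomal proteins that these factors help to assemble served as a reference, since a ratio between genes of one library needs no scaling. Its share of TPM, given first, is on the scale as deposited. The 81 genes of cytosolic ribosomal proteins held 20.0 and 19.9% of TPM in *cebp1+/+* cells versus 19.3 and 22.9% in *cebp1-/-*. They held 20.4 and 20.3% in *cebpb+/+* but 13.4 and 15.2% in *cebpb-/-*. Per 1000 TPM of ribosomal protein RNA, the set without *rsl24d1* stood at 7.60 and 6.79 TPM in *cebpb+/+* cells versus 11.6 and 10.7 TPM in *cebpb-/-*, a ratio of 1.55 between the means. With *rsl24d1* included the ratio was 1.36. The summed TPM of the set without *rsl24d1* overlapped as deposited, at 1553 and 1377 TPM in wild type versus 1553 and 1629 TPM in the mutant. The ratio of 1.55 thus mostly reflects the lower ribosomal protein share. The pigment markers were higher in the same *cebpb-/-* libraries (2.76 and 1.77% of TPM), and their part in this ratio was not tested. In the *cebp1* table the set without *rsl24d1* stood at 9.97 and 7.18 TPM per 1000 TPM in wild type versus 7.27 and 5.52 TPM in the mutant, and the genotypes overlapped.

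*rsl24d1* kept its level relative to the ribosomal protein genes more closely than the summed rest of the set did, which is not a comparison with each other gene. Per 1000 TPM of ribosomal protein RNA it was at 3.80 and 3.28 TPM in *cebpb+/+* cells versus 3.91 and 2.96 TPM in *cebpb-/-*, and the ranges overlapped. In the *cebp1* table it was at 3.77 and 3.36 TPM in wild type versus 4.72 and 3.24 TPM in the mutant, also with overlap. *ncl*, which encodes nucleolin, an abundant nucleolar protein of rRNA transcription and early processing, was at 1.01 and 0.815 TPM in *cebpb+/+* cells versus 2.14 and 1.88 TPM in *cebpb-/-* on the same measure, a ratio of 2.20. Set directly against each other, *rsl24d1* RNA was 3.76 and 4.03 times *ncl* RNA in *cebpb+/+* cells versus 1.83 and 1.58 times in *cebpb-/-*. In the *cebp1* table the order was the opposite, with 4.74 and 4.85 times in wild type versus 6.94 and 5.46 times in the mutant. Genotypes did not overlap for this ratio in either table. How many of all genes separate on such measures was not counted. As deposited, 31.2% of all genes were higher without overlap in *cebpb-/-*, where the ribosomal protein share was lower.

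**Figure D2:**
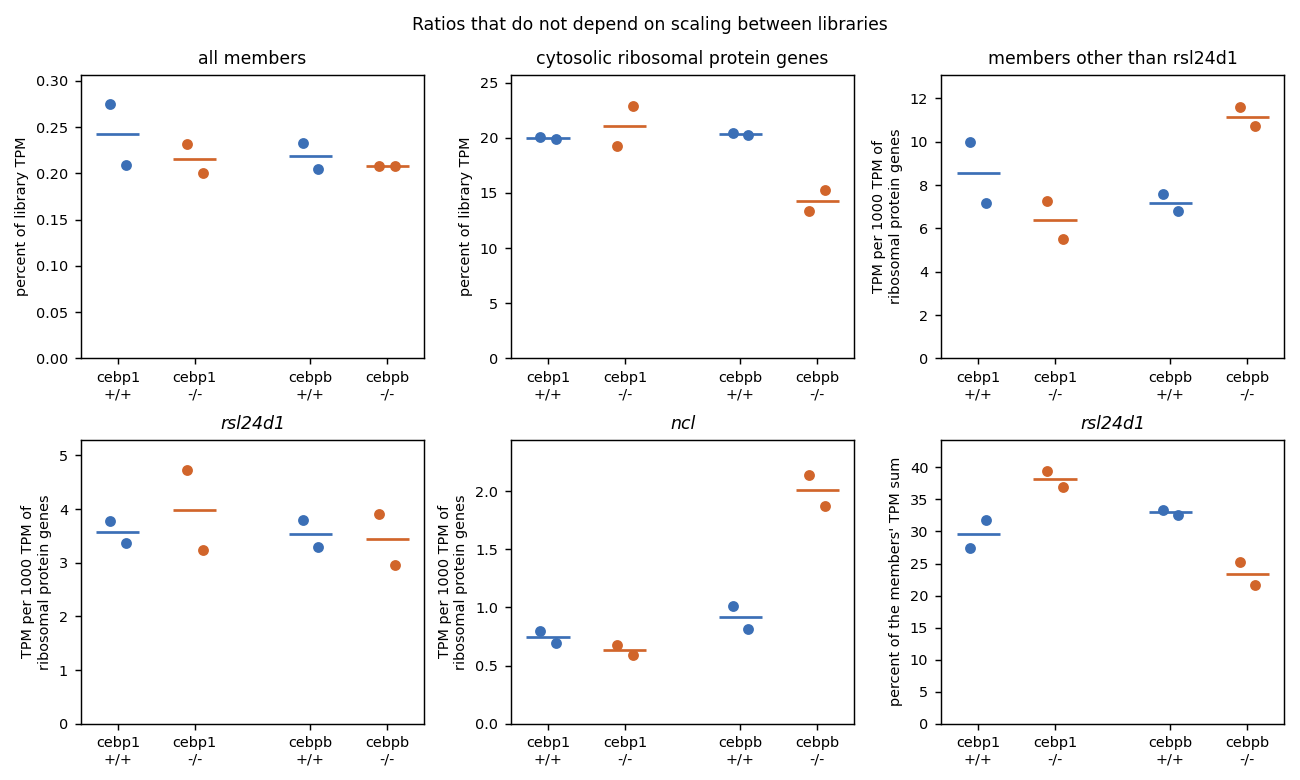
Shares of library TPM, which are on the scale as deposited, and ratios between genes, which no scaling between libraries changes. Each library is 1 point, with a line at the mean of 2 libraries, blue for wild type and orange for mutant. In *cebpb-/-* libraries the ribosomal protein share is lower (13.4 and 15.2% of TPM), *ncl* per 1000 TPM of ribosomal protein RNA is higher (2.14 and 1.88 TPM), and *rsl24d1* on that measure overlaps the wild type.

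Gene by gene, log2(TPM + 1) was compared after scaling each table by the median of ratios and also as deposited, since the direction depended on this choice. No gene of the set was called in either table by limma with Benjamini-Hochberg adjustment over all genes (adjusted p under 0.05), on either scale. The smallest adjusted p was 0.0690 for *cebp1* and 0.173 for *cebpb*, both for *rsl24d1*. In its own test on read counts, the paper lists *rsl24d1* among genes lower in *cebpb-/-* eosinophils and also bound by Cebpb. Among all genes tested, 1.28% were called higher and 0.127% lower in *cebp1-/-*, and 0% either way in *cebpb-/-*. With the test limited to genes of at least 10 scaled TPM, 5 of 36 were called higher in *cebp1-/-* (*ddx21*, *nop10*, *rsl24d1*, *tsr1* and *wdr43*), below the 17.9% of all 6307 such genes called higher (0.904% lower). In *cebpb-/-* that test called 0 of 30, where 0.0601% of such genes were called higher and 0.16% lower. A fit of all 8 libraries called 2 of 42 higher in *cebp1-/-* (*ddx21* and *rsl24d1*), where 3.88% of all genes were called higher and 0.0088% lower. In *cebpb-/-* it called *rsl24d1* lower, 1 of the 38 genes whose mean reached 1 TPM in both genotypes, where 2.21% of all genes were called higher and 3.67% lower. Counts at an unadjusted p under 0.05 were 10 higher and 0 lower of 43 in *cebp1-/-*, where all genes gave 9.7% and 4.91%, and 1 higher and 7 lower of 42 in *cebpb-/-*, where all genes gave 6.13% and 8.05%. Without the 4 genes present through one genotype alone, the latter counts were 1 and 5 of 38.

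Most genes of the set are well expressed, so genes of like level are the closer comparison. Of the 36 whose scaled mean reached 10 TPM, 9 were higher and 0 lower in *cebp1-/-* at an unadjusted p under 0.05, while 31.6% of all genes at such levels were higher and 3.35% lower. For the *cebpb* mutation 1 of 30 such genes was higher and 5 were lower, against 9.96% and 12.8% of all genes at such levels.

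The median log2 fold change of the set in *cebp1-/-* was 0.58 on the scaled values and -0.40 as deposited. Over all genes tested it was -0.06 and -0.90, over genes of at least 10 scaled TPM 0.60 and -0.41, and over ribosomal protein genes 1.08 and 0.01. On the scaled values 35 of the 43 genes had a positive fold change, and as deposited 7 had one. In *cebpb-/-* the median of the set was -0.50 scaled and -0.05 as deposited. There it was -0.03 and 0.46 over all genes, -0.15 and 0.38 over genes of at least 10 scaled TPM, and -1.05 and -0.50 over ribosomal protein genes. The number of positive fold changes was 15 of 42 scaled and 20 of 42 as deposited. These counts and the *cebpb-/-* medians of the set include *pes*, *noc4l*, *utp3* and *emg1*, whose direction was fixed by presence through one genotype alone.

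**Figure D3:**
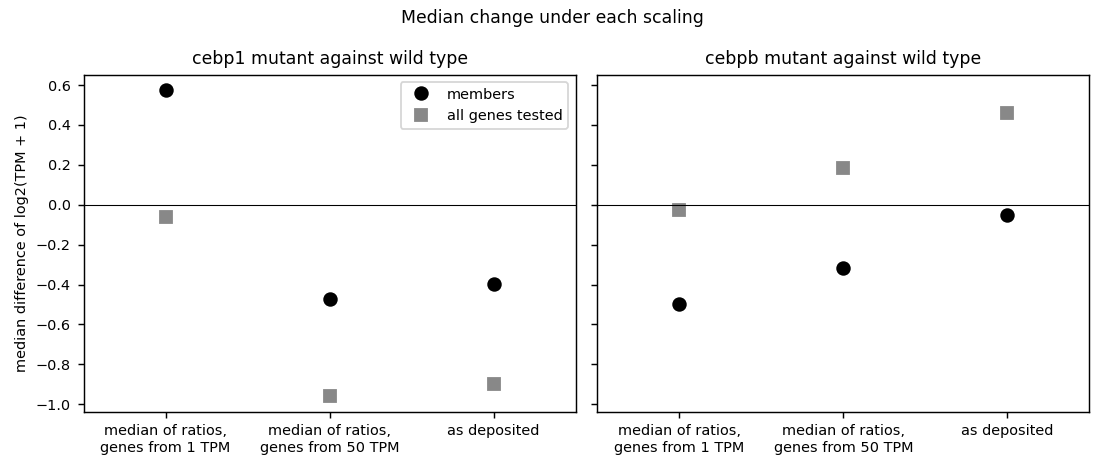
Median difference of log2(TPM + 1) between mutant and wild type for the set (black circles) and for all genes tested (grey squares) under the median of ratios over genes from 1 TPM, the same over genes from 50 TPM, and TPM as deposited. The set lies above all genes in the *cebp1* table (0.58 against -0.06 on the scaled values) and below them in the *cebpb* table (-0.50 against -0.03) under each of the scalings shown, although its sign in the *cebp1* table depends on the scaling. Genes of at least 10 scaled TPM are not drawn. At that level the scaled medians of the set and of all genes were close for *cebp1*, at 0.63 and 0.60. For *cebpb* they were -0.58 and -0.15.

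The 95% intervals were wide. Their median width was 1.93 log2 units for *cebp1* and 3.99 for *cebpb*, and the interval lay wholly within a 4-fold change either way for 36 of 43 and for 10 of 42 genes.

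Without scaling, 22 of 43 genes were lower in both *cebp1-/-* libraries than in both *cebp1+/+* libraries and 1, *tsr1*, was higher, where 61.3% of all genes were lower and 4.94% higher in this sense. *tsr1* encodes a factor of small subunit maturation and was at 10.5 and 7.93 TPM in *cebp1+/+* cells versus 12.8 and 22.1 TPM in *cebp1-/-*. Its log2 fold change was 1.79 (SE 0.42, adjusted p = 0.0957 by limma) scaled and 0.81 as deposited. For the *cebpb* mutation, 9 of 42 genes were higher and 9 lower without overlap, against 31.2% and 14.7% of all genes, and 9 and 7 of the 38 genes above 1 TPM in each genotype.

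**Figure D4:**
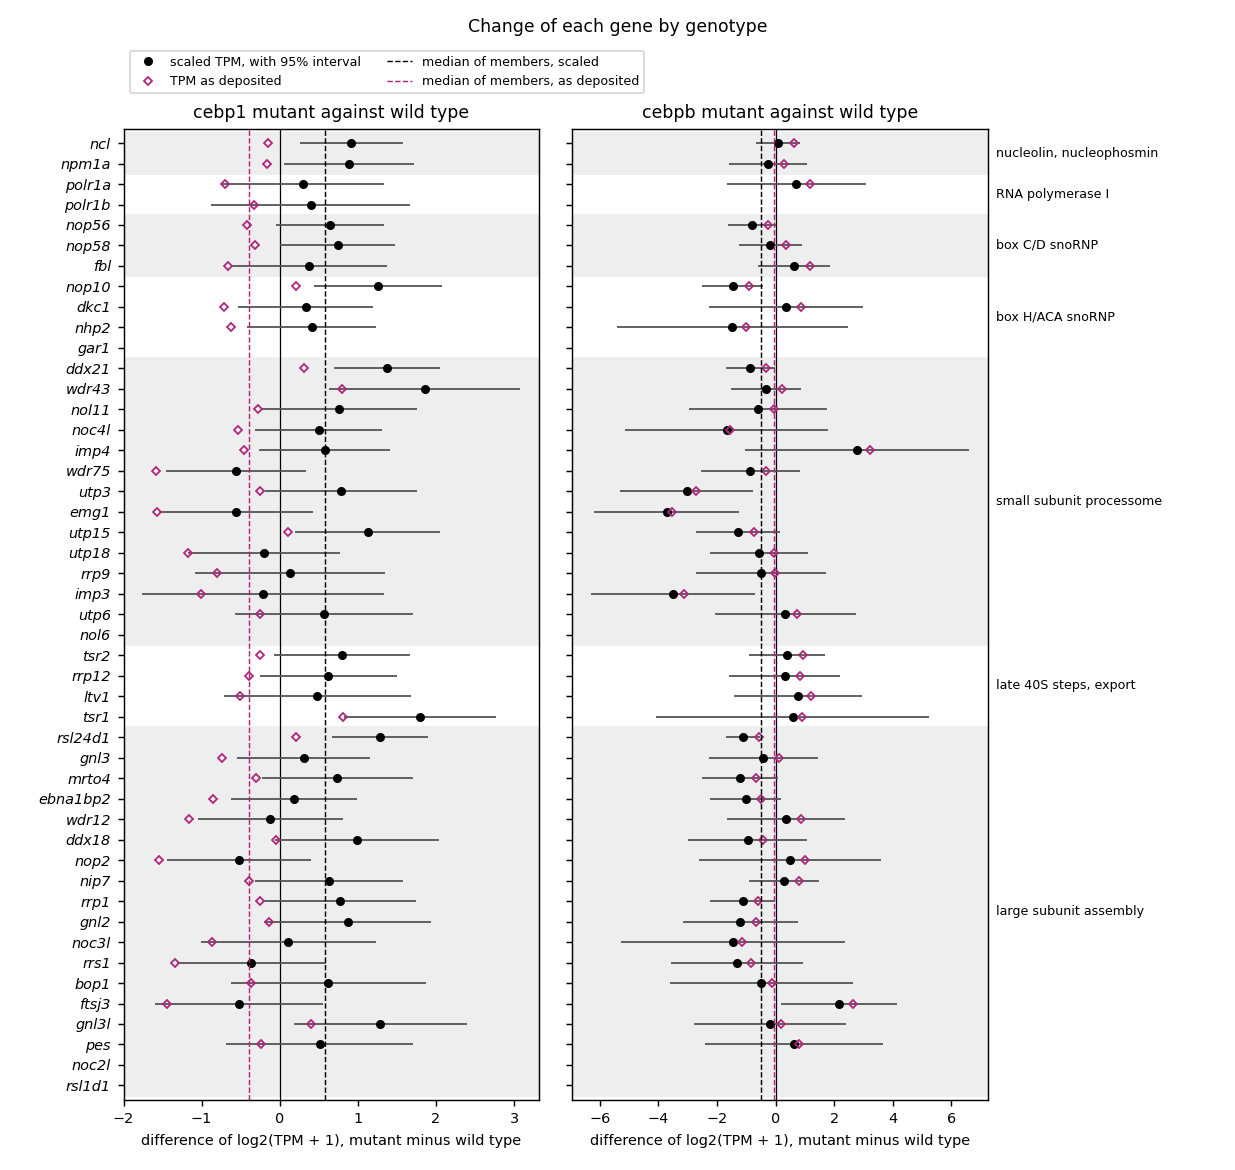
Difference of log2(TPM + 1) between mutant and wild type for each gene, scaled (black circles, with 95% intervals) and as deposited (open diamonds); dashed lines mark the medians of the set, and the axes of the panels differ. Intervals are narrower in the *cebp1* table (median width 1.93) than in the *cebpb* table (3.99), and no gene was called in either; the value of *emg1* in the *cebpb* panel comes from mutant libraries listed at 0.

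The RNA of *ncl* and of the nucleophosmin gene of the set, *npm1a*, differed little between the genotypes of the *cebp1* table as deposited. *ncl* was at 160 and 137 TPM in *cebp1+/+* cells versus 131 and 136 TPM in *cebp1-/-*, lower in both mutant libraries before scaling and higher in both after it. Its log2 change was 0.92 (SE 0.28, adjusted p = 0.190) scaled and -0.15 as deposited. In the *cebpb* table it was at 207 and 165 TPM in wild type versus 286.5 and 285.5 TPM in the mutant. There the scaled change was 0.08 (SE 0.30) and the change as deposited 0.63 (adjusted p = 0.366), so both mutant libraries were above both wild-type libraries only before scaling. *npm1a*, whose product is a chaperone of histones and ribosomal proteins, was at 51.0 and 42.2 TPM in *cebp1+/+* cells versus 47.5 and 36.1 TPM in *cebp1-/-*. Its log2 change was 0.89 (SE 0.36, adjusted p = 0.312 by limma) scaled, without overlap, and -0.16 as deposited, with overlap. It was at 68.1 and 59.1 TPM in *cebpb+/+* cells versus 52.8 and 113.7 TPM in *cebpb-/-*, where the mutant libraries lay on either side of the wild type. A second nucleophosmin gene outside the set, *npm1b*, was lower in *cebp1-/-* as deposited. It was at 23.2 and 25.8 TPM in *cebp1+/+* cells versus 8.27 and 10.8 TPM in *cebp1-/-*. Its log2 change was -0.28 (SE 0.40) scaled and -1.28 as deposited, and it was called on neither scale.

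The subunits of RNA polymerase I in the set, *polr1a* and *polr1b*, were low. Levels of subunits outside the set were mixed, with *polr1c* at 50.5 and 26.6 TPM and *twistnb* at 9.35 and 11.5 TPM in *cebp1+/+* cells. *polr1a*, which encodes the largest subunit, was at 15.5 and 24.0 TPM in *cebp1+/+* cells versus 11.9 and 11.0 TPM in *cebp1-/-*. It was at 3.65 and 2.12 TPM in *cebpb+/+* cells versus 13.5 and 4.06 TPM in *cebpb-/-*. The genotypes did not overlap in either table as deposited, lower in the first mutant and higher in the second, but on the scaled values they overlapped in both. *polr1b* was at 3.67 and 1.65 TPM in *cebp1+/+* cells versus 2.33 and 1.34 TPM in *cebp1-/-*.

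Box C/D snoRNPs guide methylation of rRNA, and *nop56* and *nop58* encode core proteins of them, as does *fbl*, the gene of the methyltransferase fibrillarin. *nop56* was at 244 and 172 TPM in *cebp1+/+* cells versus 165 and 142 TPM in *cebp1-/-*. For *cebpb* it was at 174 and 153 TPM in *cebpb+/+* cells versus 130 and 145 TPM in *cebpb-/-*. As deposited it was lower in the mutant in both tables, and on the scaled values its log2 fold change was 0.65 (SE 0.30) for *cebp1* and -0.80 (SE 0.33) for *cebpb*. *fbl* was at 56.8 and 34.9 TPM in *cebp1+/+*, at 36.4 and 21.1 TPM in *cebp1-/-*, at 26.7 and 19.6 TPM in *cebpb+/+* and lastly at 50.4 and 55.5 TPM in *cebpb-/-*. Both *cebpb-/-* libraries were above wild type on either scale, with log2 fold changes of 0.64 (SE 0.49, adjusted p = 0.616) and 1.17. *nop58* was at 116 and 88.5 TPM in *cebp1+/+*, 86.8 and 75.7 TPM in *cebp1-/-*, 65.1 and 72.8 TPM in *cebpb+/+* and lastly 124 and 63.3 TPM in *cebpb-/-*. These 3 genes had scaled log2 differences of -0.80, -0.18 and 0.64 (*nop56*, *nop58* and *fbl*) in *cebpb-/-*. None was called, and whether they differ from each other was not tested.

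Box H/ACA snoRNPs turn uridine of rRNA into pseudouridine. *nop10*, a small core protein, was at 73.4 and 83.3 TPM in *cebp1+/+* cells versus 102 and 79.7 TPM in *cebp1-/-*. In the *cebpb* table it was at 197 and 150 TPM in wild type versus 73.6 and 112 TPM in the mutant, lower in both mutant libraries on either scale (log2 fold change -1.46, SE 0.42, adjusted p = 0.247 scaled, and -0.91 as deposited). *dkc1*, the pseudouridine synthase of the particle, was at 40.3 and 44.7 TPM in *cebp1+/+* cells versus 27.7 and 23.6 TPM in *cebp1-/-*. Its levels in the *cebpb* table, 5.98 and 19.4 TPM in wild type versus 8.70 and 47.4 TPM in the mutant, overlapped, and the mutant replicates lay further apart than the genotype means.

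The small subunit processome, with 13 genes present, held the widest spread. *ddx21*, a nucleolar RNA helicase, was at 112 and 89.8 TPM in *cebp1+/+* cells versus 110 and 141 TPM in *cebp1-/-*. It was at 162 and 137 TPM in *cebpb+/+* cells versus 139 and 104 TPM in *cebpb-/-*. The genotypes overlapped in both tables as deposited, and the scaled log2 fold changes were 1.38 (SE 0.29, adjusted p = 0.0747) and -0.86 (SE 0.33, adjusted p = 0.342). *wdr43*, a processome protein that also acts in transcription of rRNA, had the largest scaled change of the set in *cebp1-/-*, 1.85 (SE 0.53, adjusted p = 0.156). Its wild-type libraries, at 104 and 29.1 TPM, enclosed the mutant library at 80.2 TPM, and the other mutant library was at 117 TPM.

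Some processome genes were at or near 0 in *cebpb-/-* libraries. *emg1*, an rRNA methyltransferase of the small subunit, had 6.15 and 17.8 TPM in *cebpb+/+* cells and was listed at 0 in both *cebpb-/-* libraries. *utp3* was at 11.0 and 8.48 TPM in *cebpb+/+* cells versus 1.08 and 0.246 TPM in *cebpb-/-*, which is -3.04 on the log2 scale (SE 0.91, adjusted p = 0.256). *imp3*, which joins the U3 snoRNP, stood at 16.9 and 34.2 TPM in *cebpb+/+* cells, and in the mutant libraries at 7.32 TPM and 0. Its partner *imp4* was listed at 0 and at 21.2 TPM in *cebpb+/+* cells versus 46.1 and 39.3 TPM in *cebpb-/-*. None of these was called, and each rested on libraries with zeros or single values near 1 TPM, where the interval of *imp4* ran from -1.03 to 6.61. In the *cebp1* table *emg1* was at 45.1 and 23.1 TPM in wild type versus 11.4 and 9.12 TPM in the mutant, lower on either scale (-0.56 scaled and -1.57 as deposited).

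The 4 genes of late small subunit steps and export all had positive scaled fold changes in both tables, between 0.31 and 1.79. In the *cebpb* table the genotypes overlapped on the scaled values for all 4, so the sign there lay within the spread of the libraries. For *tsr1* that change was 0.59 (SE 1.86), with an interval from -4.06 to 5.24. On the scaled values 35 of 43 genes of the set were positive in *cebp1-/-*, and 12 of 42 were positive in both mutants. *tsr2*, a carrier of ribosomal protein eS26, was at 81.5 and 40.6 TPM in *cebp1+/+* cells versus 50.7 and 45.7 TPM in *cebp1-/-*, with overlap, and at 29.8 and 54.0 TPM in *cebpb+/+* cells versus 61.2 and 96.9 TPM in *cebpb-/-*. As deposited 3 of the 4 had a negative fold change in *cebp1-/-*, and all 4 had a positive one in *cebpb-/-*.

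In large subunit assembly, with 16 genes present, the median scaled change was 0.57 in *cebp1-/-* and -0.72 in *cebpb-/-*, and -0.38 and -0.27 as deposited. *rsl24d1* had a log2 difference of 1.28 (SE 0.26) scaled and 0.21 as deposited in *cebp1-/-*, and of -1.12 (SE 0.23) and -0.57 in *cebpb-/-*. *ftsj3*, an rRNA methyltransferase whose yeast relative is Spb1, was at 11.1 and 14.9 TPM in *cebp1+/+* cells versus 3.45 and 4.79 TPM in *cebp1-/-*. It was at 6.68 and 2.04 TPM in *cebpb+/+* cells versus 32.3 and 26.9 TPM in *cebpb-/-*. It was lower in the first mutant and higher in the second without overlap on either scale, with log2 fold changes of -0.52 (SE 0.46, adjusted p = 0.657) and 2.16 (SE 0.79, adjusted p = 0.322). *gnl3*, which encodes nucleostemin, was at 86.4 and 48.5 TPM in *cebp1+/+* cells versus 41.9 and 35.0 TPM in *cebp1-/-*, and its *cebpb-/-* libraries, at 18.0 and 64.3 TPM, enclosed the wild type at 27.4 and 36.2 TPM.

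Shares within the set gave the make-up of the programme apart from scaling. In *cebp1-/-* the share of the summed TPM was higher without overlap for 6 of 43 genes (*wdr43*, *rsl24d1*, *gnl3l*, *ddx21*, *utp15* and *tsr1*) and lower for 20, while 6.35% of all genes were higher and 55.5% lower when divided by the same sum. In *cebpb-/-* it was higher for 10 of 42 and lower for 9, against 32.2% and 13.8% of all genes, and for 10 and 7 of the 38 genes above 1 TPM in each genotype. *rsl24d1* made up 27.5 and 31.9% in *cebp1+/+* cells versus 39.4 and 37.0% in *cebp1-/-*, and 33.4 and 32.6% in *cebpb+/+* cells versus 25.2 and 21.7% in *cebpb-/-*. *ncl* made up 8.88 and 8.09% in *cebpb+/+* cells versus 13.8 and 13.7% in *cebpb-/-*, with no separation in the *cebp1* table (5.80 and 6.56% against 5.68 and 6.77%). *rsl24d1* and *ddx21* had a higher share in *cebp1-/-* and a lower share in *cebpb-/-*, and *fbl*, *rrp12*, *ftsj3*, *imp4* and *polr1a* the reverse. How many of all genes show either joint pattern was not counted, so neither is read as a trait of the set. *rsl24d1* is also a large part of the sum, so its own shift enters the share of every other gene.

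The effects of the mutations were then compared in a fit of all 8 libraries, in which each effect is taken within its own table. The tables themselves were unlike. Between 87.2 and 88.1% of listed genes were above 0 in *cebp1* libraries, against 39.3 to 50.3% in *cebpb* libraries. Mitochondrial genes held 23.1 to 29.1% of TPM in the former and 4.70 to 6.20% in the latter. The part of this unlikeness in the differences below was not tested. The *cebp1* effect exceeded the *cebpb* effect for 3 of the 38 genes whose mean reached 1 TPM in each genotype of both tables, at an adjusted p under 0.05 (limma): *rsl24d1* by 2.40 (SE 0.33, adjusted p = 0.0050), *ddx21* by 2.24 (SE 0.40, adjusted p = 0.0127) and *nop10* by 2.72 log2 units (adjusted p = 0.0223). *utp3* also passed, at 3.82 (adjusted p = 0.0332), but it was present in the *cebpb* table through the wild type alone and so had to be lower in that mutant, and it is not counted. *rsl24d1* was called whichever of the 8 libraries was left out. The adjusted p rose to as much as 0.0672 for *ddx21* (without the second *cebp1-/-* library) and, without the first *cebp1-/-* library, to 0.126 for *nop10*. No gene of the set differed in the other direction. Among all genes 6.09% differed in the first direction and 0.739% in the second. As deposited none of these was called by limma (*rsl24d1* 0.78, adjusted p = 0.123) and *ftsj3* was called instead, at -4.11 (adjusted p = 0.0491). On that scale 513 of all 11536 genes were called, 407 of them in the direction of *ftsj3*. The median difference over the set was 1.13 against 0.43 over all genes, and -0.41 against -0.98 as deposited. Among genes of at least 10 scaled TPM that gap was not seen, with a median of 1.05 over 28 genes of the set and 1.09 over all 4140. At that level 5 of the 28 differed in the first direction (*ddx21*, *nop10*, *nop56*, *rsl24d1* and *utp15*), against 22.7% of all genes, and 2.44% of all genes differed in the second. Within the set, 22 of 42 genes had a positive effect of *cebp1* and a negative effect of *cebpb* on the scaled values, 3 the reverse, 12 were positive and 5 negative in both, while 37.5% of all genes had the first pattern and 20.5% the reverse. As deposited the counts turned to 4 and 17 of 42, with 10.9% and 51.7% of all genes. These counts and the median of 1.13 include *pes*, *noc4l*, *utp3* and *emg1*. Their presence in the *cebpb* table through one genotype alone fixed their direction there. On the scaled values *noc4l* and *utp3* are among the 22, *pes* among the 12 and *emg1* among the 5.

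**Figure D5:**
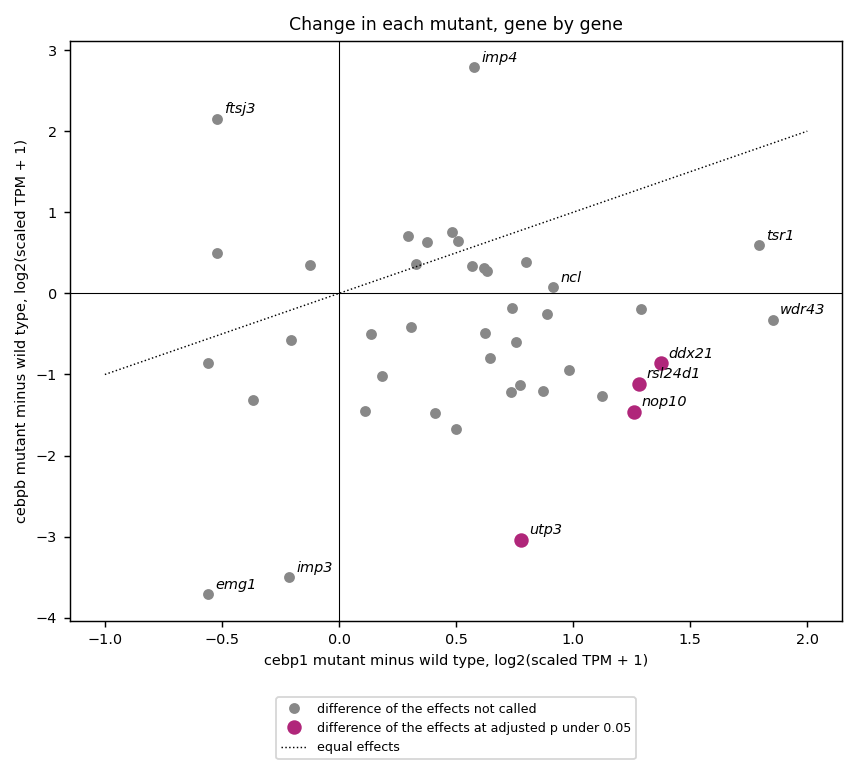
Scaled change in *cebpb-/-* against scaled change in *cebp1-/-* for the 42 genes present in both tables, in log2(TPM + 1); the dotted line marks equal effects and the axes differ in length. The genes in colour, *rsl24d1*, *ddx21* and *nop10* and, with mutant levels near 0 in the *cebpb* table, *utp3*, lie at positive values for *cebp1* and negative values for *cebpb* on the scaled values.

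Beyond the 47 genes, a wider list of 171 factors of rRNA transcription, processing and subunit assembly was counted. In *cebp1-/-* 4 of 131 tested were called higher and 0 lower (1.28% and 0.127% of all genes), and 22 were higher and 0 lower at an unadjusted p under 0.05 (9.7% and 4.91% of all genes, and 31.6% and 3.35% of those of at least 10 scaled TPM). *gtpbp4*, a GTPase of large subunit assembly, was at 223 and 196 TPM in *cebp1+/+* cells versus 417 and 381 TPM in *cebp1-/-* (1.99 on the log2 scale, SE 0.27, adjusted p = 0.0269). *exosc1*, of the RNA exosome, was at 92.4 and 104 TPM in wild type versus 183 and 271 TPM in the mutant (2.23, adjusted p = 0.0304). *nsa2* and *pno1*, assembly factors of the large and the small subunit, were called as well, at log2 fold changes of 1.51 and 1.55. None of the 4 was called as deposited, with changes there of 0.93 for *gtpbp4*, 1.17 for *exosc1*, 0.44 for *nsa2* and 0.48 for *pno1*. Fits that left out 1 library cannot decide for these 4, since each leaves a genotype with 1 library. The median of the list was 0.48 scaled and -0.46 as deposited, beside 0.58 and -0.40 for the 47.

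In *cebpb-/-* 0 of 114 tested were called, and the median was -0.90 scaled and -0.37 as deposited. At an unadjusted p under 0.05, 1 gene was higher and 16 were lower (6.13% and 8.05% of all genes, and 9.96% and 12.8% of those of at least 10 scaled TPM). The 16 include *krr1*, *nsun5*, *rrp7a*, *senp3b*, *npm1b*, *rpp14* and *rpp30*, with means under 1 TPM in *cebpb-/-*. These were present through the wild type alone and so had to be lower. The median includes such genes too, and neither value supports a lower level of the list. *riok3*, a kinase linked to small subunit maturation, was at 71.2 and 92.3 TPM in *cebpb+/+* cells versus 761 and 500.0 TPM in *cebpb-/-* (log2 fold change 2.36, adjusted p = 0.150). *krr1*, a processome factor, was at 34.0 and 28.8 TPM in wild type, and in the mutant libraries at 0.33 TPM and 0. A Myc family list summed to 382 and 477 TPM in *cebpb+/+* and to 1094 and 834 TPM in *cebpb-/-*. It also holds *max*, *mxd* and *mnt* genes, so the sum is not a measure of Myc activity, and *max* alone was at 207.5 and 247 TPM in *cebpb+/+*. Of 9 tested 0 were called, and 3 were higher and 0 lower at an unadjusted p under 0.05 by limma, against 6.13% and 8.05% of all genes. Within it *mycb* was at 38.7 and 86.1 TPM in wild type versus 322 and 265.5 TPM in the mutant (adjusted p = 0.210). *cdkn1a*, the cell cycle inhibitor p21, was at 8.98 and 11.1 TPM in *cebpb+/+* cells versus 197 and 310 TPM in *cebpb-/-* (3.96, adjusted p = 0.150). In the *cebp1* table the Myc family list summed to 309 and 232 TPM in wild type versus 232 and 210 TPM in the mutant, and 17 proliferation genes to 771 and 556 TPM against 241 and 219 TPM. These sums are as deposited, a scale on which 61.3% of all genes were lower in *cebp1-/-* without overlap. The median log2 fold change was 0.21 scaled and -0.72 as deposited for the Myc list, and -0.51 and -1.54 for the proliferation genes. No gene of either list was called.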

How the data were processed

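The authors made the libraries by a modified Smart-seq2 protocol, used STAR for alignment to GRCz11 and featureCounts for counting, and deposited TPM as one table per mutation with 4 libraries each (tools named in the submitters' processing notes). The gene lengths and annotation behind the TPM are not given in the sources used here. Their own test, DESeq2, ran on read counts, so it was not used here. With it the paper reports genes that were lower in *cebpb-/-* eosinophils, *rsl24d1* among them. The absence of calls in the main limma fit of *cebpb-/-* is a result on TPM and not on those counts. The genes followed and all gene lists were chosen with earlier results of these data known.

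Within each table TPM were scaled by the median of ratios over genes above 0 in all 4 libraries with a mean of at least 1 TPM, with factors of 1.64 and 1.33 (*cebp1+/+*), 0.658 and 0.750 (*cebp1-/-*), 0.845 and 0.907 (*cebpb+/+*) and 1.36 and 1.21 (*cebpb-/-*). The genes tested (25203 and 11478) had a scaled mean of 1 TPM or more. The test was limma 3.58.1 in R 4.3.3 on log2(scaled TPM + 1), a scale that understates changes of low genes, with a mean-variance trend and a two-sided test; calls were made at an adjusted p under 0.05. Differences of effects came from a fit of all 8 libraries over 11360 genes. The script was tested on simulated data. p-values measure the spread between pools of larvae. Every library sums to 1000000 TPM, and depth is unknown. Median TPM per library was 6.95 and 5.43 in *cebp1+/+* and 2.19 and 2.70 in *cebp1-/-*. Recomputed from genes at 50 TPM or more, scaling came to 0.988 and 0.972 in *cebp1+/+* versus 1.03 and 1.04 in *cebp1-/-*. For the *cebpb* table this gave 0.873 and 0.952 in wild type versus 1.15 and 1.11 in the mutant. The main *cebp1* factors, and the signs that follow from them, thus hinge on genes under that level.

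The genes given in full are those called, the 8 highest and the 6 with the smallest p in each table, those whose effects differ, and *ncl*, *npm1a*, *fbl*, *dkc1*, *polr1a*, *polr1b*, *gnl3* and *rsl24d1*; of other pathway genes, those called and the 3 with the smallest p per table. Genes beside these were named after their values were seen. Ribosomal protein genes were taken by name pattern. Alternatives were TPM as deposited, scaling on genes of at least 50 TPM, pseudocounts of 0.1 and 5, no filter, a filter at 10 TPM, no trend, a replicate block, each library left out and shares without mitochondrial genes. Python 3.11.15 and matplotlib 3.10.9 gave the figures.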

Additional observations from a re-analysis of the deposited data

Results flagged for a closer look

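For 4 genes the effect of the *cebp1* mutation differed from that of the *cebpb* mutation by the test of the difference itself (limma, adjusted over 11360 genes). On the log2 scale the difference was 2.40 for *rsl24d1*, 2.24 for *ddx21*, 2.72 for *nop10* and 3.82 for *utp3*. The last was present in the *cebpb* table through its wild type alone (mutant levels of 1.08 and 0.246 TPM), so its difference is given as a value and supports nothing. None of these was called with TPM as deposited, where the differences were 0.78, 0.63, 1.11 and 2.48.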

How the results depend on the processing

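With TPM as deposited and with scaling on genes of at least 50 TPM, the median of the set in the *cebp1* table was -0.40 and -0.47, and 45 and 40 of all genes were called in place of 355, with 35.6% and 27.5% of the calls higher in place of 91.0%. The median of the set in the *cebpb* table was -0.050 as deposited. Of all genes in the *cebp1* table, 212 were called with a pseudocount of 0.1, 1183 with the filter at 10 TPM, and 0 with no filter, with no trend and in each fit that left out a library (0 to 0). For the *cebpb* mutation, 10 of all genes were called with a pseudocount of 5, 11 with the filter at 10 TPM and 668 in the fit of all 8 libraries, in which the *cebpb* fold changes share the spread of the other table. Of the set, 5 genes were called higher in the *cebp1* table with the filter at 10 TPM (*ddx21*, *nop10*, *rsl24d1*, *tsr1* and *wdr43*) and 2 in the fit of all 8 libraries (*ddx21* and *rsl24d1*, among 442 of all genes), and 3 in the *cebpb* table in that fit (*rsl24d1*, with *emg1* and *utp3*, which were present through the wild type alone). The median of the set ran from 0.43 to 0.80 (*cebp1*) and from -0.99 to -0.37 (*cebpb*) with 1 library left out, the lowest without the second *cebpb+/+* library. The effects differed for 4 genes of the set, *utp3* included. With TPM as deposited 1 gene was called (*ftsj3*, none of the 4), and 0 with scaling on genes of at least 50 TPM, 0 with no trend, and 1 to 6 genes, not only of the 4, with 1 library left out. *rsl24d1* was called in all 8 such fits, *ddx21* was lost without either *cebp1-/-* library or the first *cebpb+/+* library, *nop10* was called in 3 of them (without the second *cebp1+/+* or either *cebpb-/-* library) and *utp3* in 2 (without either *cebpb-/-* library). Each lone library left in a genotype is assumed to vary like the others. The causes were not tested. Over the named genes no called value changed its direction, though within either table the main fit called none of them. Values that were not called changed sign in 26 of 225 (*cebp1*), 16 of 212 (*cebpb*) and 24 of 282 (difference) comparisons with an alternative. Of the 19 named genes in the *cebp1* table, 11 changed sign as deposited and 11 with scaling on genes of at least 50 TPM. The filters, the trend and the replicate block leave a fold change as it is, so those comparisons could not change sign.

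Replicate numbers are shared between genotypes, and their deviations from the genotype means correlated at 0.0081 (*cebp1*) and -0.019 (*cebpb*). With 2 libraries a genotype this cannot decide whether libraries of one number were prepared together. With a replicate block, 387 and 29 of all genes were called, 0 genes of the set in either table, and 1 difference, *rsl24d1* (limma, adjusted p = 0.0323). The difference was called for 414 of all 11360 genes with that block, 380 of them in the direction of *rsl24d1*.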
